A study of Mus musculus with 55 samples.

Results

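The genes described here are 8 markers of formed somites: Meox1, Meox2, Tcf15, Foxc1, Foxc2, Pax3, Pax1 and Pcdh8. They were taken by name and looked up by symbol in the 2 CEL-seq count tables of a series of 55 mouse samples on the Cdx and T transcription factors. CEL-seq tags each transcript at its 3′ end. All 8 symbols were listed among the 15807 genes of the table of epiblast stem cells (EpiSCs). The tailbud table, of 14602 genes, listed 6 of them and had no entry for Meox2 or Pax1. After a filter on low counts, 5 genes could be tested in tailbuds (Meox1, Tcf15, Foxc1, Foxc2 and Pcdh8) and 3 in EpiSCs (Meox1, Foxc1 and Pcdh8). The question was whether this trunk somite program was higher in mutant tailbuds while it stayed low in EpiSCs.

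Somites are epithelial blocks that bud one after another from the front of the presomitic mesoderm, the tissue that the tailbud keeps adding to at the rear. Presomitic cells carry Tbx6, Msgn1 and the oscillating Notch targets, and lose them as they segment and turn on somite regulators. The formed somite then splits into sclerotome, which gives vertebrae and ribs, and dermomyotome, which gives muscle and dermis.

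Tailbuds were microdissected at E8.0 from embryos labelled WT, Cdx1-4 or Triple, with 3 libraries in each group and no treatment. Each group had 1 library whose column name holds the word green and 2 with the word blue, and the libraries are named here green-1, blue-1 and blue-2. EpiSCs are pluripotent lines, here made from pre-streak embryos, grown first on feeder cells and then without them on fibronectin with Fgf-basic and Activin A. The EpiSC groups, WT and Null, were taken at 0h in 2 µM of the Wnt inhibitor IWP2. Cells were taken again at 24h, after IWP2 had been replaced by 3 µM of the GSK3 inhibitor Chiron and 120 ng/ml Fgf8, with 2 libraries in each of these 4 groups. Effects of Chiron, of Fgf8, of IWP2 removal and of time in culture cannot be told apart in this design. The labels trace the Null cells to CdxKO embryos, while the same text also speaks of Wnt3 null EpiSCs, and the alleles behind Null, Cdx1-4 and Triple are not spelled out. Nor do they say whether libraries of a group came from separate embryos or cultures, so p-values measure only the spread between these libraries, which may be technical.

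Tailbud libraries held 389601 to 854852 counts and EpiSC libraries 1114055 to 2914870. Levels are given as CPM, library-size scaled counts after TMM normalisation, and 3 counts in 1 library amounted to 3.53 to 7.84 CPM in tailbuds and 1.04 to 2.69 CPM in EpiSCs. Cdx4 had 68 counts over the WT tailbuds, 1 over Cdx1-4 and 0 over Triple. Cdx1 was at 175 ± 31.4 CPM (SD, n = 3) in WT, 59.3 ± 17.8 in Cdx1-4 and 72.7 ± 30.4 in Triple, and Cdx2 at 204 ± 47.9, 198 ± 52.1 and 96.4 ± 14.6. In EpiSCs at 24h, Cdx2 had 108 counts over the WT libraries and 40 over Null. A 3′ tag outside a deleted stretch says nothing about the deletion, so the tags that remained do not test the labels. In bulk RNA, fewer cells of a type and less RNA per cell cannot be told apart, here and in every result that follows.

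In Triple tailbuds, Meox1, Tcf15 and Pcdh8 were higher than in WT by edgeR's quasi-likelihood test with Benjamini-Hochberg adjustment over all 6003 tested genes. These were 3 of the 5 tested somite genes, where 1.62% of all tested genes were called higher and 2.90% were called in either direction. Foxc1 and Foxc2 had positive differences that missed the threshold of 0.05. The median log2 difference was 1.37 over the 5 somite genes and -0.00 over all tested genes. Against Cdx1-4 tailbuds the same 3 somite genes were called, of 5, where 1.22% of tested genes were called higher and 2.02% in either direction. Both comparisons share the Triple libraries, so they are not independent of each other. Tcf15 and Pcdh8 passed the filter on low counts only through their Triple libraries, and Pax3 did not pass it. The 3 of 5 and the median therefore rest in part on genes testable because they were high in Triple.

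Meox1, a homeobox regulator of early somites that helps to pattern the sclerotome, had the largest difference of the tested members in Triple against WT. Its level was 31.7, 45.7 and 34.1 CPM in the WT libraries green-1, blue-1 and blue-2, and 62.5, 55.8 and 76.0 CPM in Cdx1-4. In Triple it was 217, 239 and 185 CPM. The 3 groups did not overlap, and the lowest Triple library lay above every library of the other groups by more than the whole spread within any group. The log2 difference was 2.56 ± 0.21 (SE; adjusted p = 7.0e-13) between Triple and WT, a 5.89-fold difference. Between Triple and Cdx1-4 it was 1.73 ± 0.18 (adjusted p = 1.2e-09). Leaving out any 1 library, or all green ones, kept both calls.

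Tcf15, a bHLH factor that makes somites epithelial, was sparse in WT and well above it in Triple. Its level was 8.23, 10.1 and 9.73 CPM in WT, from 4 to 7 counts a library, and 7.81, 12.0 and 20.0 CPM in Cdx1-4. In Triple it was 52.3, 30.4 and 48.3 CPM. All Triple libraries were above all others, while the Cdx1-4 libraries ranged across the WT values, with blue-2 the highest. Triple exceeded WT by 2.25 ± 0.40 on the log2 scale (adjusted p = 1.7e-04) and Cdx1-4 by 1.80 ± 0.36 (adjusted p = 0.00119). With the blue libraries alone, 2 a group, both calls were lost (adjusted p = 0.0535 and 0.164).

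Pcdh8, a protocadherin of the cell surface that paraxial mesoderm cells carry from before segmentation into early somites, was called higher in Triple, and that call rested on few counts. It was at 11.8, 20.3 and 9.73 CPM in WT, at 13.0, 14.6 and 14.0 CPM in Cdx1-4 and at 31.4, 42.1 and 31.6 CPM in Triple. The Triple libraries lay above all 6 others, which shared 1 range. The log2 difference was 1.37 ± 0.38 (adjusted p = 0.0283) against WT and 1.32 ± 0.36 (adjusted p = 0.0351) against Cdx1-4. Against WT the call was lost without Triple green-1 (adjusted p = 0.0517), Triple blue-1 (0.182), Triple blue-2 (0.0809), WT green-1 (0.254) or WT blue-2 (0.111), with DESeq2 (0.214) and in the blue libraries alone (0.323). Against Cdx1-4 it was lost when any 1 library was left out: adjusted p = 0.138, 0.0868 and 0.0795 without Cdx1-4 green-1, blue-1 and blue-2, and 0.0640, 0.242 and 0.0976 without Triple green-1, blue-1 and blue-2. There DESeq2 gave 0.242 and the blue libraries 0.236.

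Foxc1 and Foxc2 are closely related forkhead factors that act together in paraxial mesoderm and are needed for segmentation. Foxc2 was at 14.1, 22.8 and 19.5 CPM in WT, 18.2, 22.6 and 30.0 CPM in Cdx1-4 and 39.2, 51.5 and 30.0 CPM in Triple. Its Triple libraries lay above all WT libraries, with the lowest level with the highest Cdx1-4 library. The log2 difference of Triple from WT was 1.15 ± 0.34 (95% interval 0.45 to 1.84), with an adjusted p of 0.0554, which became 0.0367 without Triple blue-2.

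Foxc1 was at 50.5, 33.0 and 60.8 CPM in WT, 69.0, 70.4 and 52.0 CPM in Cdx1-4 and 75.8, 81.9 and 76.6 CPM in Triple. The Triple libraries were close together and above the rest, but WT and Cdx1-4 were wide and overlapped. The differences of Triple were 0.68 ± 0.23 from WT (adjusted p = 0.115) and 0.27 ± 0.21 from Cdx1-4 (adjusted p = 0.719), neither past the threshold. Foxc2 against Cdx1-4 gave 0.78 ± 0.31 (adjusted p = 0.273).

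Of the 4 somite genes with a RefSeq promoter entry (Foxc1, Pcdh8, Meox2 and Pax1), Pcdh8 carried a call in tailbuds and EpiSCs and Foxc1 in EpiSCs, so the 250 bases before their annotated starts are shown, 5′ to 3′ on the gene's own strand. The gene bodies lie, in GRCm38.p6, at chr13:31806646-31810635 (Foxc1) and chr14:79766772-79771312 (Pcdh8). The windows are chr13:31806396-31806645 on the plus strand and chr14:79771313-79771562 on the minus strand, both upstream of the gene. Capitals mark TATAAA, the core of a TATA box, on either strand.
Foxc1: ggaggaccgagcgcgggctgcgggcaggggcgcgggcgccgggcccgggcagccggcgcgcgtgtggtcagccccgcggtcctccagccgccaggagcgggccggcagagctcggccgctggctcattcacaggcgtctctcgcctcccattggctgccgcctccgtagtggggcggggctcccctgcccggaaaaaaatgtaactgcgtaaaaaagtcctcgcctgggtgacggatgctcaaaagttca
Pcdh8: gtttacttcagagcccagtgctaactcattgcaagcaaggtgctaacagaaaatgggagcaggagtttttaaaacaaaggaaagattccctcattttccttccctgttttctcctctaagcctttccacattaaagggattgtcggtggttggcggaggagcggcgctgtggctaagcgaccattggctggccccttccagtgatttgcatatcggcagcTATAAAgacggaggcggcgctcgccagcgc
The windows differ in base composition, with 70.8% G and C before Foxc1 and 51.2% before Pcdh8, where the median over 32851 RefSeq windows of the same length was 52.4%. TATAAA stood 30 to 25 bases before the start of Pcdh8 and nowhere in the Foxc1 window, and 12.4% of all windows held it on either strand. Both windows were also searched on both strands for CTTTGA, the core bound by Tcf/Lef factors (in 13.8% of all windows), TTTATG, the Cdx core (10.8%), and AGGTGT, a T-box core (11.8%), and held none of them. The absence says only that these letters are not in this window.

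Pax3, a paired-box factor of dermomyotome and also of the dorsal neural tube and neural crest, stayed near the limit of detection. It had 3, 1 and 1 counts in the WT libraries, 2, 2 and 1 in Cdx1-4 and 5, 5 and 3 in Triple, and fell below the filter. On the CPM scale the Triple libraries were above the others, but with every gene tested its adjusted p was 0.579 against WT and 0.459 against Cdx1-4. The unadjusted p of edgeR was 0.0465 against WT and 0.0190 against Cdx1-4, and at this depth neither difference passed the adjusted threshold.

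**Figure D1:**
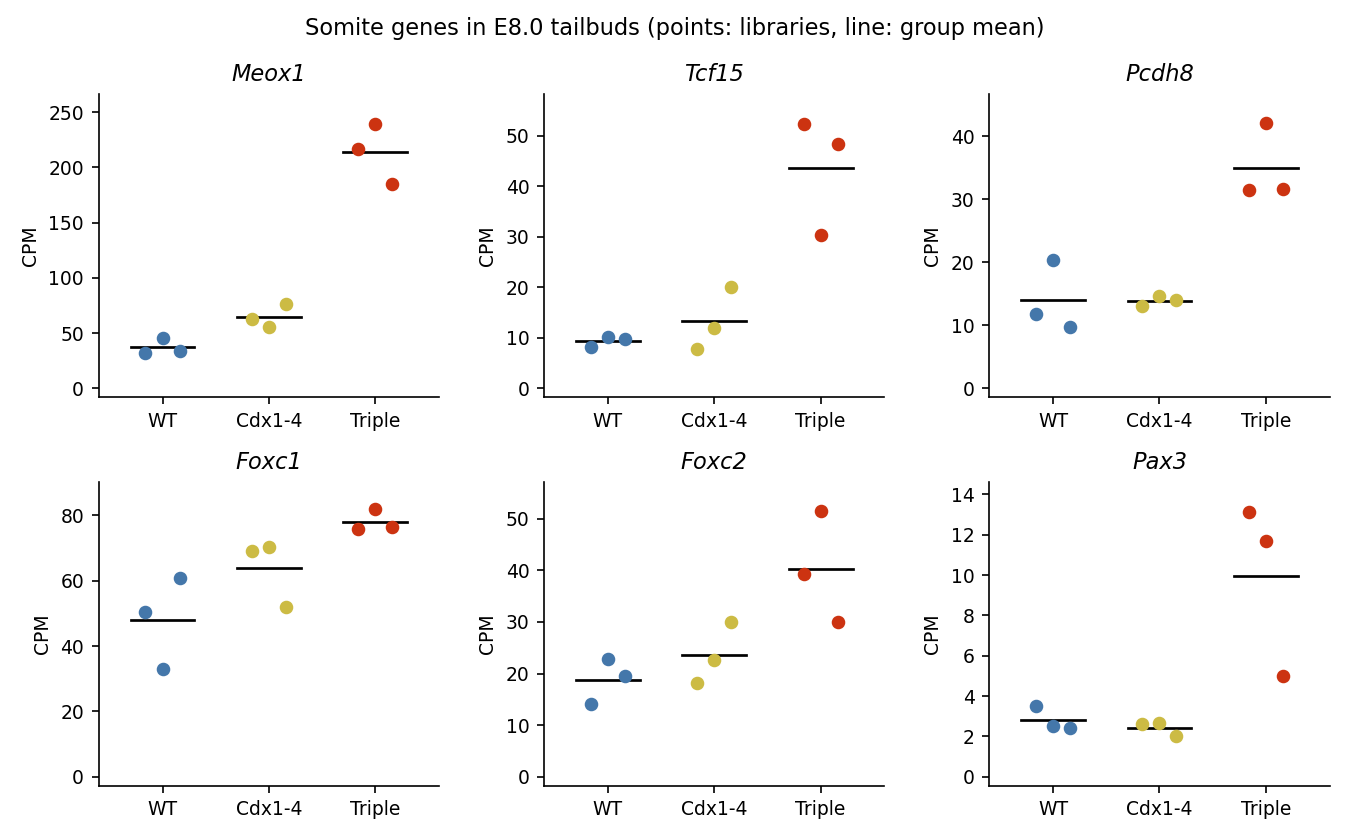
Level of 6 somite genes in E8.0 tailbuds. The vertical axes give CPM on linear scales that differ between panels, points are single libraries (3 a group) and black lines are group means. For Meox1, Triple libraries span 185 to 239 CPM against 31.7 to 45.7 CPM in WT, while for Foxc1 the Triple mean of 78.1 CPM lies near the Cdx1-4 mean of 63.8 CPM.

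In Cdx1-4 tailbuds none of the 5 tested somite genes was called against WT, by edgeR's quasi-likelihood test or by DESeq2, and 0.133% of all tested genes were called. At an unadjusted p below 0.05, 1 of the 5 remained. That gene was Meox1, at 64.8 ± 10.3 CPM (SD, n = 3) in Cdx1-4 and 37.2 ± 7.47 in WT. Its log2 difference was 0.83 ± 0.24 (adjusted p = 0.267), and every Cdx1-4 library was above every WT library. The other 4 differences were 0.05 ± 0.43 for Pcdh8, 0.37 ± 0.36 for Foxc2, 0.41 ± 0.22 for Foxc1 and 0.45 ± 0.49 for Tcf15. This comparison shares its WT libraries with Triple against WT.

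Of the presomitic and clock genes, 8 of a list of 13 were tested. In Triple against WT 4 of them fell and 1 rose, where 2.90% of all tested genes were called, with a median log2 difference of -0.93. Tbx6, the T-box factor that commits cells to paraxial mesoderm, was at 155 ± 12.0 CPM (SD, n = 3) in WT and 48.5 ± 8.87 in Triple, a log2 difference of -1.68 ± 0.21 (adjusted p = 1.1e-07). Cited1, a transcriptional cofactor, fell by 0.93 ± 0.12 (adjusted p = 4.3e-07), and the other genes that fell were Dll3 and Hes7 of the Notch pathway and clock. The gene that rose was Dkk1, a secreted Wnt inhibitor (log2 difference 1.02 ± 0.28, adjusted p = 0.0254), and DESeq2 called the 4 falls but not this rise. Msgn1 had 2 counts over WT, 2 over Cdx1-4 and 0 over Triple, too few for a fold. In Cdx1-4 against WT, none of the 8 was called by edgeR or DESeq2, and 2 had an unadjusted p below 0.05.

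The summed level of the 6 listed somite genes was 120 to 136 CPM in WT, 173 to 194 in Cdx1-4 and 376 to 456 in Triple. That of the 13 presomitic and clock genes was 1240 to 1360, 1060 to 1280 and 758 to 834 CPM. The ratio of the somite sum to the presomitic sum, which moves with both, was 9.69% to 10.5% in WT, 14.0% to 18.3% in Cdx1-4 and 48.2% to 60.2% in Triple. The 3 groups did not overlap in this ratio, and Cdx1-4 lay much nearer to WT than to Triple. Without Meox1, which made up much of the sum, the somite genes still summed to 191 to 218 CPM in Triple, against 88.2 to 102 in WT and 111 to 122 in Cdx1-4.

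**Figure D2:**
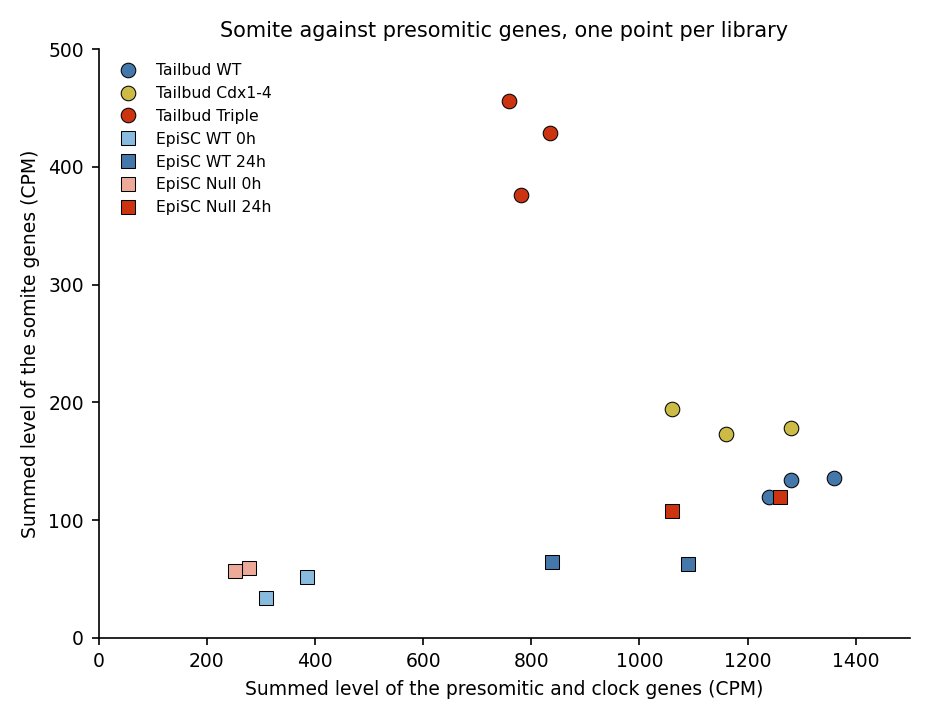
Summed level of the somite genes (vertical axis, CPM) against that of the presomitic and clock genes (horizontal axis, CPM), 1 point per library, circles for tailbuds and squares for EpiSCs. Triple tailbuds stand apart at 376 to 456 CPM of somite genes. Between 0h and 24h EpiSCs rise on both axes, to 62.3 to 64.6 CPM of somite genes in WT and 108 to 120 in Null. The 2 tables were scaled separately.

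Of the genes that follow somite formation, a few were dense enough to test. In the sclerotome list 3 of 11 were tested and 1 rose in Triple against WT, with a median log2 difference of 1.59. Of all tested genes, 1.62% were called higher there and 2.90% in either direction. The gene that rose, Col2a1, passed the filter only through its Triple libraries. Col2a1, the fibrillar collagen of cartilage and of notochord sheath, was at 4.55 ± 3.23 CPM (SD, n = 3) in WT, 11.0 ± 2.72 in Cdx1-4 and 53.3 ± 10.9 in Triple, a log2 difference of 3.79 ± 0.46 between Triple and WT (adjusted p = 1.1e-07). Sox9, the chondrogenic regulator, gave 1.59 ± 0.50 (adjusted p = 0.0732) and Fbn2, a microfibril protein, 1.05 ± 0.35 (adjusted p = 0.0942). Pax9, a sclerotome regulator close in function to Pax1, had 1 count over WT and 2 over Triple. Of 12 dermomyotome and myotome genes none passed the filter, so there was nothing to test, and Myf5, Myog and Lbx1 had no entry in the tailbud table. Of the segment boundary genes, 2 of 11 were tested and neither edgeR nor DESeq2 called one. These were Mesp1, a bHLH factor of nascent mesoderm and the forming boundary, with 1.01 ± 0.32 (adjusted p = 0.0801), and Epha4 with -0.13 ± 0.30. Mesp1 was the gene with an unadjusted p below 0.05. Ripply2 (6 counts in Triple, 1 in WT) and Uncx (4 and 2), which mark the new boundary and the rear of each somite, were close to the floor.

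Markers of other tissues that a dissected tailbud can hold moved with Triple as well, and their part in the somite gene differences was not tested. Beside the counts below, 1.62% of all tested genes were called higher in Triple against WT and 2.90% in either direction. Sox10, a neural crest regulator, was at 2.38 ± 2.35 CPM in WT, 6.61 ± 1.34 in Cdx1-4 and 104 ± 6.67 in Triple (SD, n = 3), a log2 difference of 5.03 ± 0.39 between Triple and WT (adjusted p = 2.5e-13). It was the tested gene of 7 neural crest markers, and it passed the filter only through its Triple libraries. Their summed level was 7.61 to 14.1 CPM in WT, 16.0 to 21.3 in Cdx1-4 and 107 to 148 in Triple. Most of the Triple sum was Sox10 itself, so the sum largely repeats that gene. Tfap2b was at 0 in Cdx1-4 and Triple, and Foxd3 and Erbb3 had no entry. Of 6 tested endoderm genes 2 rose, Krt18 (0.76 ± 0.13, adjusted p = 3.8e-05) and Krt8 (0.66 ± 0.13, adjusted p = 9.0e-04), and the list summed to 1400 to 1630 CPM in WT and 2020 to 2110 in Triple. Of 5 tested genes of intermediate and lateral plate mesoderm 1 fell, Osr1 (-0.88 ± 0.24, adjusted p = 0.0251), a call lost with DESeq2 (0.133), without Triple green-1 (0.114) or blue-1 (0.200), and without WT green-1 (0.0645), blue-1 (0.0508) or blue-2 (0.0769), and in the blue libraries alone (0.245). The list's sums were 467 to 554 CPM in WT and 538 to 789 in Triple.

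The remaining lists had no gene called by edgeR or DESeq2 between Triple and WT, nor one at an unadjusted p below 0.05. The neural tube markers, with 1 tested, summed to 86.3 to 139 CPM in WT and 107 to 138 in Triple, with Neurog2 at 0 in both. Those of blood and endothelium, with 2 tested, summed to 112 to 122 and 115 to 133 CPM, with Emcn at 0 in both. The heart markers summed to at most 42.3 CPM in WT and 36.6 to 65.5 in Triple, and those of notochord and node to 35.5 to 50.5 and 32.8 to 36.6, with 0 genes tested in either list. Myh6 was at 0 in Triple and Foxj1 in WT.

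Within the 9 tailbud libraries the somite genes differed in how closely they ran together, given here as Pearson correlations of log2 CPM over libraries that share the 3 group differences. Meox1 had r = 0.92 with Tcf15, 0.92 with Pcdh8 and 0.90 with Foxc2. Foxc1 had lower values with each of the others, from 0.42 with Pcdh8 to 0.66 with Meox1. Among all other tested genes, those most like Meox1 were Soga3 (0.98), Sparc (0.98) and Col2a1 (0.96). Among those most like Tcf15 were Pdcd6 and Tuba1a (0.96 each), and those most like Pcdh8 were Erp29 (0.97), Dkk3 (0.96) and Col4a1 (0.96). Soga3 was at 13.8 CPM in WT, 26.4 in Cdx1-4 and 83.5 in Triple, and Sparc, a matrix glycoprotein, at 141, 172 and 241.

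In EpiSCs the somite genes did not move as a set. Over 24h in Chiron and Fgf8, WT cells lowered Meox1 and raised Foxc1, 2 of 3 tested members, in a comparison where 16.8% of the 9703 tested genes were called. Null cells raised Foxc1, 1 of 3, where 18.6% were called. Null exceeded WT in Pcdh8 at 0h, 1 of 3, where 6.67% were called, and in Pcdh8 and Foxc1 at 24h, 2 of 3, where 8.05% were called. The median log2 difference of the 3 tested members was -0.36 in the WT response and -0.42 in the Null response, against -0.01 and 0.01 over all tested genes. Pcdh8 passed the filter on low counts only through its Null libraries, and Meox1 only through its 0h libraries. These counts and medians therefore rest in part on genes testable because they were high in the groups compared. Comparisons of the 4 groups share libraries with each other.

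Foxc1 was the member that rose with treatment. The WT libraries went from 23.9 and 18.7 CPM at 0h to 48.1 and 53.2 CPM at 24h, and the Null libraries from 14.4 and 14.4 CPM to 92.6 and 69.8 CPM. In both genotypes each 24h library was well above each 0h library, and Null spanned the wider range at both ends. The 24h response was 1.23 ± 0.22 on the log2 scale in WT (adjusted p = 6.1e-05) and 2.50 ± 0.24 in Null (adjusted p = 5.3e-10). The difference of the 2 responses was 1.27 ± 0.34 with an adjusted p of 0.0909, not past the threshold, and it passed with no filter (0.0402) but not with DESeq2 (0.613). At 24h Null exceeded WT by 0.71 ± 0.18 (adjusted p = 0.00869). That call was lost with DESeq2 (0.203), without Null 24h replicate 1 (0.313) and without WT 24h replicate 1 (0.125). At 0h the difference was -0.57 ± 0.30 (adjusted p = 0.285).

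Pcdh8 was the member that separated the genotypes in EpiSCs, at both times. The WT libraries had 7.44 and 5.09 CPM at 0h and 5.88 and 3.17 CPM at 24h, and the Null libraries 32.0 and 20.7 CPM at 0h and 17.7 and 23.3 CPM at 24h. Every Null library was above every WT library, and within each genotype the 2 times overlapped. Null exceeded WT by 2.09 ± 0.36 on the log2 scale at 0h (adjusted p = 2.0e-04) and by 2.04 ± 0.37 at 24h (adjusted p = 3.0e-04), and leaving out any 1 library kept both calls. The 24h responses were -0.36 ± 0.46 in WT (adjusted p = 0.669) and -0.42 ± 0.29 in Null (adjusted p = 0.365).

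Meox1 fell in WT cells. The WT libraries had 15.9 and 8.48 CPM at 0h and 2.77 and 1.90 CPM at 24h, and the Null libraries 6.91 and 11.7 CPM at 0h and 3.45 and 8.64 CPM at 24h. The WT times did not overlap and the Null times did. The WT response was -2.30 ± 0.51 on the log2 scale (adjusted p = 0.00126), and without WT 0h replicate 1, the highest library, it was -1.76 with an adjusted p of 0.0911. With the reads of every library drawn once at random down to the smallest library, it was -1.59 (adjusted p = 0.0649). The Null response was -0.64 ± 0.51 (adjusted p = 0.445), and the difference of the 2 responses, 1.66 ± 0.75, had an adjusted p of 0.432. Null against WT gave -0.46 ± 0.44 at 0h (adjusted p = 0.623) and 1.20 ± 0.60 at 24h (adjusted p = 0.243).

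The interaction called 0 of the 3 tested members with edgeR and 0 with DESeq2, while 0.567% of all tested genes were called by edgeR. At an unadjusted p below 0.05 edgeR counted 2 of the 3, Foxc1 and Meox1, and the value for Pcdh8 was -0.05 ± 0.58.

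**Figure D3:**
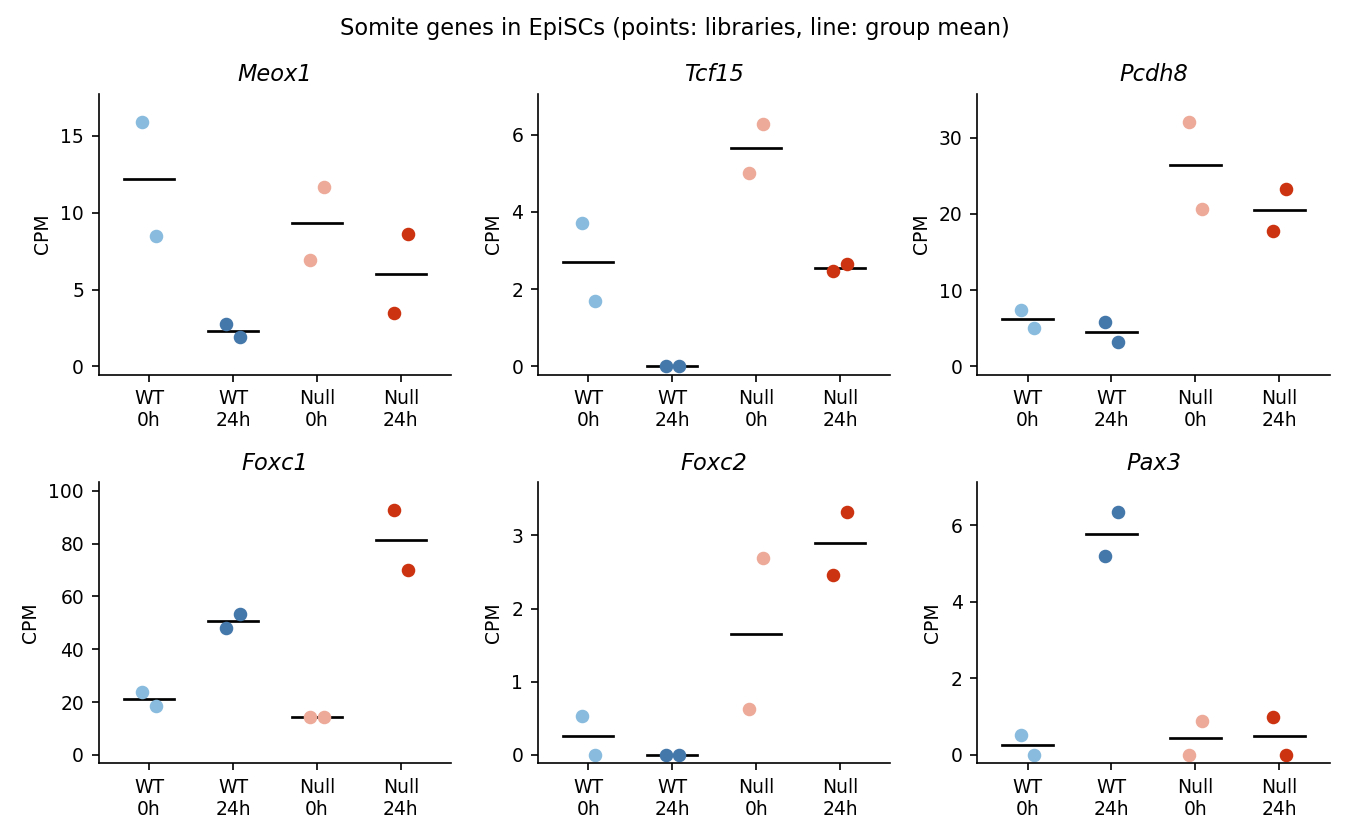
Level of 6 somite genes in EpiSCs. The vertical axes give CPM on linear scales that differ between panels, points are single libraries (2 a group) and black lines are group means. Foxc1 rises to 48.1 to 53.2 CPM in WT and 69.8 to 92.6 CPM in Null at 24h, Pcdh8 is at 17.7 CPM or above in Null libraries and at 7.44 or below in WT, and Tcf15, Foxc2 and Pax3 rest on 15 counts a library or fewer.

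The other 5 somite genes were below the filter in EpiSCs and are given as counts. For Tcf15 the WT libraries held 7 and 3 counts at 0h but 0 and 0 at 24h, and the Null libraries 8 and 7 counts, then 5 and 4. It was missing from WT at 24h alone. Taking 3 counts over the group as the floor, and the higher group's counts as exact, it was at least 4.08-fold lower than at 0h. By the same rule it was at least 3.79-fold lower than in Null at 24h. For Foxc2 the WT libraries held 1 and 0 counts at 0h and none at 24h, and the Null libraries 1 and 3 counts, then 5 and 5. At 24h Null was, by the same rule, at least 4.21-fold above WT.

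Pax3 ran the other way between genotypes. The WT libraries held 1 and 0 counts at 0h and then 15 and 10, and the Null libraries 0 and 1 at 0h and then 2 and 0. The ratio of pooled counts per total was 20.4 between WT at 24h and at 0h (exact 95% interval 3.34 to 838) and 9.89 between WT and Null at 24h (2.47 to 86.1). These intervals cover counting error only, and the bounds for Tcf15 and Foxc2 leave out counting error in the higher group. With every gene tested, edgeR gave adjusted p = 0.00114 for Pax3 and 0.00600 for Tcf15 in the WT response, and 0.0119, 0.0170 and 0.0327 for Pax3, Tcf15 and Foxc2 in Null against WT at 24h. The difference of the 2 responses did not pass for Pax3 (0.886) or Tcf15 (0.434). Meox2 and Pax1, which follow somite formation in muscle precursors and sclerotome, had 1 count and 2 counts over all 8 EpiSC libraries.

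**Figure D4:**
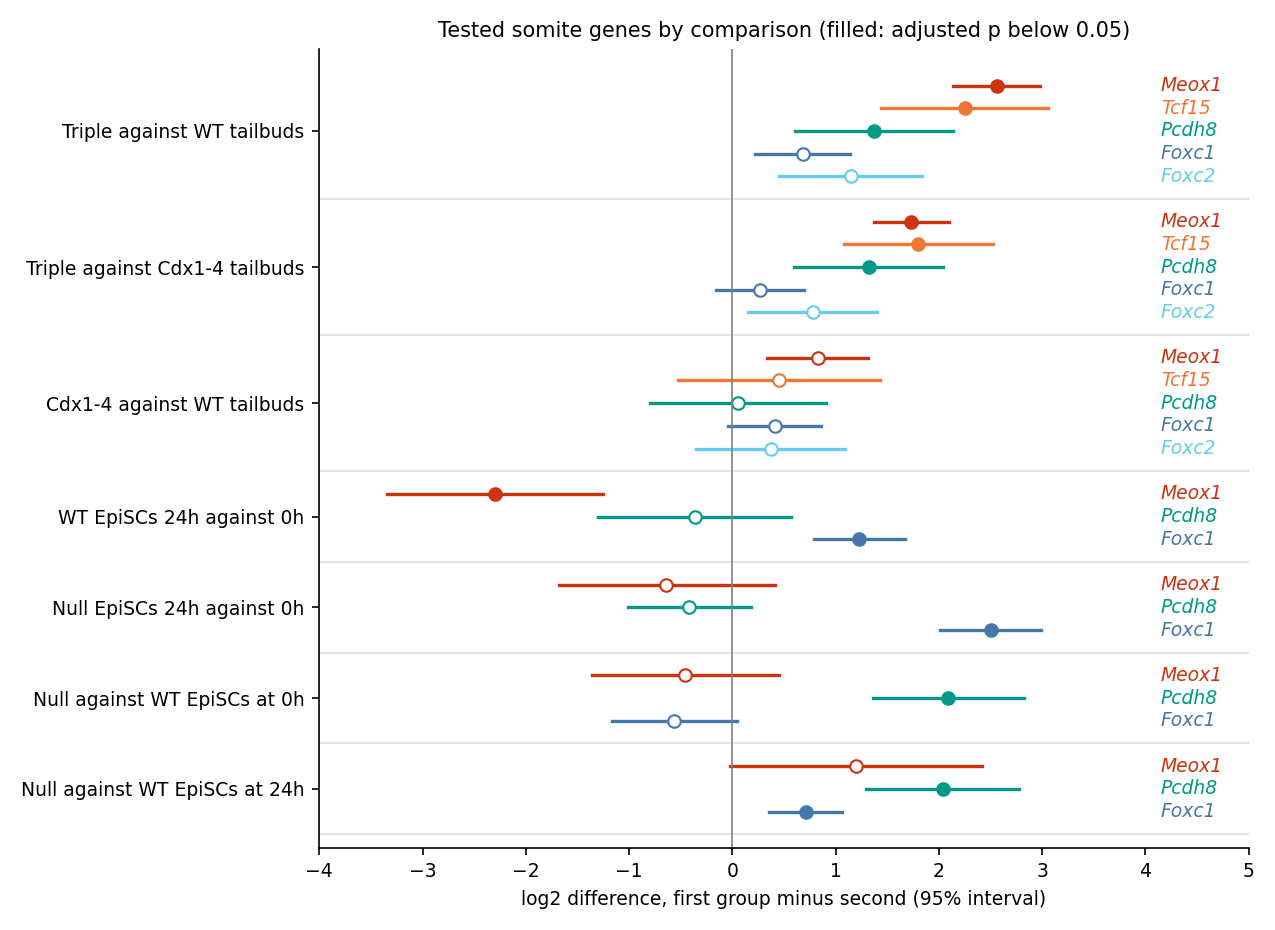
Log2 differences of the tested somite genes in 7 comparisons, first group minus second. Points are edgeR estimates, filled for an adjusted p (over all tested genes) under 0.05, and lines are 95% intervals. Meox1 lies at 2.56 in Triple against WT tailbuds and at -2.30 in the 24h response of WT EpiSCs, and Foxc1 is filled in the EpiSC responses but not in tailbuds.

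Genes of the steps before somite formation were tested in the same cells. Of 12 tested presomitic and clock genes 6 rose and 0 fell in WT at 24h, where 16.8% of all tested genes were called, with a median log2 difference of 1.21. In Null cells 8 rose and 0 fell, where 18.6% were called, with a median of 2.04. Tbx6 went from 1.89 ± 1.08 CPM (SD, n = 2) to 121 ± 31.3 in WT, a log2 difference of 5.96 ± 0.33 (adjusted p = 7.0e-16), and from 4.76 ± 0.377 to 161 ± 31.5 in Null. Tbx6 passed the filter on low counts only through its 24h libraries. The counts and medians of this list therefore rest at least in part on a gene testable because it was high at 24h. Cited1 rose by 2.35 ± 0.18 in WT (adjusted p = 4.1e-12). Of 4 tested boundary genes 2 rose in WT, Mesp1 (5.63 ± 0.70, adjusted p = 1.5e-07) and Epha4 (1.42 ± 0.29, adjusted p = 5.3e-04), and in Null 2 rose and 1 fell.

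Genes of later somite derivatives went in both directions. Of 6 tested sclerotome genes 4 fell and 0 rose in WT, beside the same 16.8%, with a median of -1.02, among them Sox9 (-2.62 ± 0.25, adjusted p = 5.2e-10) and Scx, a tendon factor (-1.83 ± 0.19, adjusted p = 2.2e-09). In Null 3 fell and 1 rose, beside 18.6%, and DESeq2 called 3 falls and no rise. Among the tested dermomyotome genes, Eya1 fell in WT and En1 rose (1.11 ± 0.31, adjusted p = 0.0100), and DESeq2 called neither. The call of En1 was lost without WT 24h replicate 1 (0.55, adjusted p = 0.478) and without WT 0h replicate 1 (0.91, adjusted p = 0.146). Sox9 also acts in neural tissue, and the neural tube markers summed to 683 to 694 CPM in WT at 0h and 211 to 237 at 24h. The part of that tissue in these falls was not tested.

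The somite genes summed to 33.9 to 52.1 CPM in WT EpiSCs at 0h, 62.3 to 64.6 at 24h, 56.6 to 59.0 in Null at 0h and 108 to 120 in Null at 24h. Most of the higher 24h sums was Foxc1: without it the sums were 15.3 to 28.2 CPM at 0h and 11.4 to 14.2 at 24h in WT, and 42.2 to 44.6 and 27.6 to 38.5 in Null. The presomitic sum went from 310 to 385 CPM at 0h to 839 to 1090 at 24h in WT and from 252 to 278 to 1060 to 1260 in Null, so that both sums were higher at 24h. The ratio of the somite to the presomitic sum was 10.9% to 13.5% in WT at 0h and 5.72% to 7.71% at 24h, and 21.2% to 22.4% and 9.52% to 10.2% in Null.

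Set side by side, with no test because the 2 tables were scaled apart, the levels in Triple tailbuds and EpiSCs depended on the gene. Meox1 was at 213 ± 27.2 CPM (SD, n = 3) in Triple tailbuds and at group means of 2.33 to 12.2 CPM in EpiSCs, and Foxc2 at 40.2 ± 10.8 against at most 2.89 ± 0.608 (SD, n = 2). Foxc1 was at 78.1 ± 3.33 CPM in Triple tailbuds and at 81.2 ± 16.1 in Null EpiSCs at 24h, so it was not low there. Pcdh8 was at 35.0 ± 6.14 CPM in Triple tailbuds and 26.3 ± 8.04 in Null EpiSCs at 0h. Of the 6 somite genes in both tables, Meox1, Tcf15 and Foxc2 had every EpiSC library below every tailbud library.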

How the data were processed

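The deposited tables hold counts per gene and library, not normalised, mapped to mm10 per the labels, from CEL-seq on 10 ng of total RNA with 75 bp paired-end reads. The aligner and counting method are not given in the sources used here. All 17 columns were mapped to groups by name, and within tailbud groups the columns could not be matched to single samples. Spike-in entries, 8 per table, were left out (1 read in tailbuds, 2 in EpiSCs). Each table was fitted alone with edgeR 4.0.16 in R 4.3.3 (filterByExpr, TMM, robust quasi-likelihood test, 1 mean per group), which left 6003 and 9703 tested genes and 6 and 4 residual degrees of freedom. A gene was called at a Benjamini-Hochberg adjusted p below 0.05 over all tested genes. Standard errors come from the F statistic, intervals are 95%, and CPM divides the deposited count by the library total times the TMM factor.

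Alternatives were RLE size factors, DESeq2 1.42.0, no filter, thinning to the smallest library, the compared groups alone, a replicate block, the blue libraries alone and leaving out each library. The fits were tested on simulated data. The 8 members and the 13 other gene lists were chosen with earlier results of these data known. The text names all 8 members, up to 2 called genes with the smallest p of each other list in Triple against WT tailbuds (for the 4 lists of presomitic, boundary, sclerotome and dermomyotome genes also in the WT EpiSC response), the 3 genes most correlated with each member called in tailbuds (log2 CPM, prior count 2, predicted genes left out), and Cdx1, Cdx2 and Cdx4. Other genes named within a list (Dll3, Hes7, Dkk1, Msgn1, Sox9, Fbn2, Pax9, Mesp1, Epha4, Ripply2, Uncx, Eya1, and in the last section Aldh1a2, Rarg, T, Fgf8, Wnt3a and Fgf17) were picked after their values were seen. Some genes that the rule names are not reported here. Binding and accessibility regions, deposited in mm9, were not analysed here, and RefSeq windows and positions are of GRCm38.p6. RefSeq promoter windows were found for 4 of the 8 members, and Meox1, Tcf15, Foxc2 and Pax3 were not among them.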

Additional observations from a re-analysis of the deposited data

How the results depend on the processing

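The direction and call of a result were kept in 652 of the recomputed single-gene values, of somite genes and other named genes. In 47 the call was lost, in 3 it was gained and in 9 the sign turned. The number of somite genes called was 1 rather than 3 in both Triple comparisons with the blue libraries alone. Thinning gave 1 rather than 2 in the WT response, by 1 random draw. With no filter it was 4 rather than 2 in the WT response, 5 rather than 2 for Null against WT at 24h and 1 rather than 0 for the interaction. For Null against WT at 24h it was 1 with DESeq2 and 1 to 2 when 1 library was left out. Signs turned in 3 values near 0. Pcdh8 in Cdx1-4 against WT was -0.05 in the blue libraries, and -0.10 (without WT green-1) to 0.32 (without WT blue-1) when 1 library was left out. Meox1 in Null against WT at 0h was -0.83 (without Null 0h replicate 2) to 0.08 (without WT 0h replicate 1). The Pcdh8 interaction was 0.00 with DESeq2 and -0.36 to 0.54 when 1 library was left out. Apart from fits with fewer libraries or genes, the cause was not tested. RLE size factors changed no call of a somite gene.

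Same-named tailbud libraries did not deviate together (r of -0.09 to 0.05). In EpiSCs r was small but always positive for same-named libraries (0.01 to 0.09), and -0.09 to -0.01 for differently named ones. The names were not taken as pairs in the main fits. With the replicate block the interaction called 1 somite gene, Foxc1 (1.29, adjusted p = 0.0324), rather than 0, and no other call of a somite gene changed.

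Over all genes, DESeq2 called 105 rather than 174 in Triple against WT, 69 rather than 121 against Cdx1-4, 844 rather than 1632 and 1030 rather than 1807 in the WT and Null responses, 247 rather than 647 and 275 rather than 781 for Null against WT at 0h and 24h, and 12 rather than 55 for the interaction, where no filter gave 93 and the block 123. The blue libraries alone gave 74 against WT and 38 against Cdx1-4, and leaving out Triple green-1 or blue-1 gave 78 or 70 against Cdx1-4. Leaving out 1 library gave as few as 1034, 1121, 326, 357 and 18 in the EpiSC comparisons, in the order above. Low counts limit Tcf15 in WT and Cdx1-4 tailbuds and Pax3 in all. Pcdh8 could not be tested in thinned tailbud libraries, and the alternatives planned for the mm9 regions were not run.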

Other observations

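Of the genes of the retinoic acid pathway, which acts on newly formed somites, 4 of 7 tested rose and 1 fell in Triple tailbuds against WT, with a median log2 difference of 0.78, where 2.90% of all tested genes were called. Aldh1a2, which synthesises retinoic acid in trunk mesoderm, was at 294 ± 13.1 CPM (SD, n = 3) in WT, 413 ± 124 in Cdx1-4 and 749 ± 144 in Triple, a log2 difference of 1.34 ± 0.20 between Triple and WT (adjusted p = 9.4e-04). Crabp2, which carries retinoic acid to its receptors, rose by 1.26 ± 0.17 (adjusted p = 1.1e-06), and Stra6, a membrane receptor for retinol binding protein, by 1.16 ± 0.18 (adjusted p = 2.3e-05). The receptor gene Rarg fell (-1.22 ± 0.24, adjusted p = 8.0e-04). In Cdx1-4 against WT, none of the 7 was called by edgeR or DESeq2, and 2 had an unadjusted p below 0.05.

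Of 11 tested streak and axial progenitor genes, 8 fell and 0 rose in the same comparison, where 2.90% of all tested genes were called. Cdx1, Cdx2 and Cdx4, of the gene family that the genotypes are named for, are 3 of the 8, and of the other 8 tested genes 5 fell. Grsf1, an RNA-binding protein, was at 312 ± 42.2 CPM (SD, n = 3) in WT and 117 ± 8.35 in Triple (log2 difference -1.42 ± 0.16, adjusted p = 7.2e-09). The T-box gene T, of streak and tailbud, was at 187 ± 25.0 and 104 ± 8.35 CPM (-0.85 ± 0.17, adjusted p = 9.0e-04), and Fgf8 gave -1.18 ± 0.26 (adjusted p = 0.00305). In EpiSCs over 24h, 10 of 11 tested rose in WT, where 16.8% of all tested genes were called, and 11 of 11 in Null, where 18.6% were, and DESeq2 called 9 and 7. Wnt3a and Fgf17, among the genes that rose, had 0 counts in WT at 0h and could not have fallen there. The 10 of 11 therefore rests in part on genes testable because they were high in other groups. The filter's part in the 11 of 11 was not tested.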
